A study of Mus musculus with 25 samples.

Results

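To compare where repressive histone marks lie in regenerating muscle with stabilised HIF1α, the peak lists of H3K9me3 and H3K27me3 were set side by side in vhl-/- myofibers. The members are all peaks on chromosomes 1 to 19 in the 6 chromatin immunoprecipitation sequencing (ChIP-seq) libraries whose labels give the genotype vhl-/-, 3 for each antibody. They numbered 14998 of the 15312 peaks in these lists, and of the 55242 peaks in the 24 lists of the series. H3K9me3 lists contributed 3476 and H3K27me3 lists 11522.

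All mice had Pax7-Cre(ERT2), a tamoxifen-dependent recombinase restricted to muscle stem cells, together with mito-Dendra2, a fluorescent mitochondrial allele switched on in those cells and their progeny. Both marks were measured in mice of the same genotype, in which floxed Vhl was deleted from muscle stem cells, so no group without the deletion enters the comparison of marks. VHL is the ubiquitin ligase component that targets HIF1α for degradation. Tamoxifen was given at 75 mg/kg on each of 5 days, and 2 days later the tibialis anterior muscle was injured with 50 µL of 1.2% BaCl2. At 14 days post injury, Dendra2+ myofibers were collected by dissection, crosslinked with 1% formaldehyde, and their chromatin was sonicated to fragments near 500 bp. A dissected fiber can carry nuclei of cells that never expressed the Cre, which the marker genes described below bear on. The other genotypes, used only where named, were wild-type, mfn2-/- and HIF1dPA, a conditional form of HIF1α made resistant to degradation, with 3 libraries of each mark. No list had a peak assigned to Vhl, so the lists cannot check the deletion. Ages are not given in the labels, and the labels do not say whether replicates came from separate animals, so p-values measure the spread between these libraries. Read totals are unknown, and a difference in peak number is a difference in what was called.

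As background, H3K27me3 is written by Polycomb repressive complex 2, with EZH2 or EZH1 as the catalytic subunit, and is known for covering CpG-rich promoters of developmental transcription factors that a tissue does not use. H3K9me3 is written by the SUV39H enzymes and by SETDB1, which KRAB zinc finger proteins recruit through TRIM28. It is known for marking repeats, pericentromeric chromatin and the clusters of zinc finger genes themselves.

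The RefSeq promoter windows that carried a peak give a first view of the difference. Each window runs from 250 bases before to 50 bases after a transcript start, and 31365 distinct windows on 18 autosomes were searched (build GRCm38.p6, the build the labels call mm10). H3K9me3 peaks touched 2 of them in all 3 lists without H3K27me3 in any (0.00638% of windows), and both are printed here. H3K27me3 peaks touched 75 in all 3 lists without H3K9me3 (0.239% of windows). Of these, the 5 are printed whose gene was itself assigned the peak and ranked highest by score within the lists. Lower case letters are the RefSeq sequence from 5′ to 3′ along the gene, and capitals mark each CpG, the dinucleotide that is dense in Polycomb target promoters. The windows are A530040E14Rik at chr1:85105843-85106142 and Ugt1a1 at chr1:88211709-88212008, both plus strand, for H3K9me3. For H3K27me3 they are Igf2bp3 at chr6:49214905-49215204 (minus), Sim1 at chr10:50895401-50895700 (plus), Tchh at chr3:93442080-93442379 (plus), Dlx2 at chr2:71546705-71547004 (minus) and Hoxd10 at chr2:74691641-74691940 (plus).
A530040E14Rik: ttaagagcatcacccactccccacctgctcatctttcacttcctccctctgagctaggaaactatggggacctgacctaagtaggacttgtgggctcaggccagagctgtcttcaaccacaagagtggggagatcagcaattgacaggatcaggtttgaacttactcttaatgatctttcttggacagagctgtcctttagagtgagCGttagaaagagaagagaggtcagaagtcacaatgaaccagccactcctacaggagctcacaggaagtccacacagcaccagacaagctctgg
Ugt1a1: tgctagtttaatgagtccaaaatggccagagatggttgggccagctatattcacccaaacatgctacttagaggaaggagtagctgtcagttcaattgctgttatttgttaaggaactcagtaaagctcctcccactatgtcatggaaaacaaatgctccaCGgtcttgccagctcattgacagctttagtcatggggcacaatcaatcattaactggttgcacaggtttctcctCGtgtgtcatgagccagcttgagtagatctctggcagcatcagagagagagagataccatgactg
Igf2bp3: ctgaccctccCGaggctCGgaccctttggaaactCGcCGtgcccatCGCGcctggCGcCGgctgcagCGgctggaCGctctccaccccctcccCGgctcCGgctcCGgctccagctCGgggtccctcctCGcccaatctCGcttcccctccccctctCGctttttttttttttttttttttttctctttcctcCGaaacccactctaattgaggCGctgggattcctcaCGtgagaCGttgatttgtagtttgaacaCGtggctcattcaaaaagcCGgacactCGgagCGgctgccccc
Sim1: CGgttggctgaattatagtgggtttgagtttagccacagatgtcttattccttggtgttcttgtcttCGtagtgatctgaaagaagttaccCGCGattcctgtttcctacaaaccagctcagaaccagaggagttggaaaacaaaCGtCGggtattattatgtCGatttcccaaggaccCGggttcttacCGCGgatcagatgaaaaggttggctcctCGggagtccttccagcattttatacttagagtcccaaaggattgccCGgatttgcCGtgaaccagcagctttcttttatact
Tchh: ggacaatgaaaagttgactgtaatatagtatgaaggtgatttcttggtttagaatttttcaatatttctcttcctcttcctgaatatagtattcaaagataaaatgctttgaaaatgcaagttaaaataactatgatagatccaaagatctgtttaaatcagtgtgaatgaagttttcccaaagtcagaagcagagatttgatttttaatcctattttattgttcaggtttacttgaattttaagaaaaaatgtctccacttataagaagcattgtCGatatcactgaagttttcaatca
Dlx2: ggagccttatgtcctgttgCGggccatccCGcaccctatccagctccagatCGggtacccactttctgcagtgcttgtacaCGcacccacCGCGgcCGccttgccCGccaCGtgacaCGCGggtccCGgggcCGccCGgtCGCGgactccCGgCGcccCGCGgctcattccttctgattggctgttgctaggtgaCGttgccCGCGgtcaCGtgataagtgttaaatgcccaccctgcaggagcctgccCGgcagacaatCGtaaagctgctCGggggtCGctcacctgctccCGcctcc
Hoxd10: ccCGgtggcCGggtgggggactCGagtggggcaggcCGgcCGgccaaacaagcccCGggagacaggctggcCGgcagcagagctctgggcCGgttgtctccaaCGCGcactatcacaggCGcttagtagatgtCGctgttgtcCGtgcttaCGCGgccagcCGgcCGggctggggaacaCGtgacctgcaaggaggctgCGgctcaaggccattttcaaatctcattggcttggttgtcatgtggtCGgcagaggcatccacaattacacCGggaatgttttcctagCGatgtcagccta

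The A530040E14Rik window holds 1 CpG and the Ugt1a1 window 2. The peaks over them were assigned by the authors to the neighbouring genes A530032D15Rik (scores of 171.79, 62.68 and 169.65 in replicates 1, 2 and 3) and Gm20528 (60.83, 86.56 and 55.72). A score is the caller's p-value as −log10 multiplied by 10, so 100 stands for 10 on the −log10 scale. Among the H3K27me3 windows, that of Dlx2, a forebrain homeobox factor, holds 29 CpG, and that of Igf2bp3, a fetal RNA-binding protein, holds 25. Hoxd10, a limb and axial patterning gene, has 22 CpG, and Sim1, a basic helix-loop-helix factor of the hypothalamus, has 13. Tchh, which encodes the hair follicle protein trichohyalin, departs from them with 1 CpG and a GC content of 28.7%, although its peak scored 274.16, 319.19 and 470.38.

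Over all windows with a peak, the lists of the marks separated in CpG content. H3K9me3 lists touched 15, 15 and 14 windows, with medians of 3, 6 and 3.5 CpG. H3K27me3 lists touched 406, 400 and 330 windows, with medians of 14, 15 and 17 CpG. The median of all 31365 windows was 7 CpG. Windows with 10 or more CpG made up 13.3%, 13.3% and 21.4% of those with H3K9me3, 69.0%, 69.3% and 70.9% of those with H3K27me3, and 43.9% of all windows. The groups of libraries did not overlap, and H3K9me3 fell below the share of all windows and H3K27me3 above it. For windows with H3K27me3 in all 3 lists and no H3K9me3, the share was 56.0% (42 of 75). Their medians were 11 CpG and a GC content of 53.3%, compared with 7 CpG and 53% for all windows. Most of the H3K27me3 windows printed above are therefore richer in CpG than the median of these 75.

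H3K27me3 lists were longer than H3K9me3 lists. H3K9me3 lists held 1039, 1122 and 1315 autosomal peaks in replicates 1, 2 and 3, and H3K27me3 lists 3873, 4023 and 3626. Every H3K27me3 list was longer than every H3K9me3 list, with a ratio of geometric means of 3.33 (log2 difference 1.73, exact two-sided permutation p = 0.1, adjusted p = 0.1). With 3 libraries against 3, 0.1 is the smallest p that the test allows, so none of the 13 comparisons between marks could pass 0.05. In all 13 p was 0.1, and so was p adjusted over the 13 by the Benjamini-Hochberg method. Each result below is therefore read by whether the libraries of the marks overlapped.

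Covered length followed the number of peaks, at 1.11 ± 0.153 Mb for H3K9me3 and 3.75 ± 0.302 Mb for H3K27me3 (SD, n = 3 each). The typical H3K27me3 peak was wider. Median widths were 623, 625 and 629 bp in H3K9me3 lists and 784, 826 and 785 bp in H3K27me3 lists, a ratio of 1.28. The widest peaks went the other way, since 3.28% ± 0.106 of H3K9me3 peaks reached 3 kb, compared with 1.18% ± 0.203 of H3K27me3 peaks. In numbers, these wide peaks were 33, 38 and 43 in H3K9me3 lists and 47, 55 and 35 in H3K27me3 lists. Both statements on width depended on which peaks were counted. Among the 1039 strongest peaks of each list, the length of the shortest list, median widths were 642 ± 23.2 and 1375 ± 82.5 bp, and the share reaching 3 kb was 3.63% ± 0.484 for H3K9me3 and 4.33% ± 0.962 for H3K27me3. Among peaks with a score of at least 100, the median width of H3K27me3 was lower by 0.03 on the log2 scale, and the share reaching 3 kb was 21.4% ± 2.17 for H3K9me3 and 5.55% ± 0.704 for H3K27me3.

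**Figure D1:**
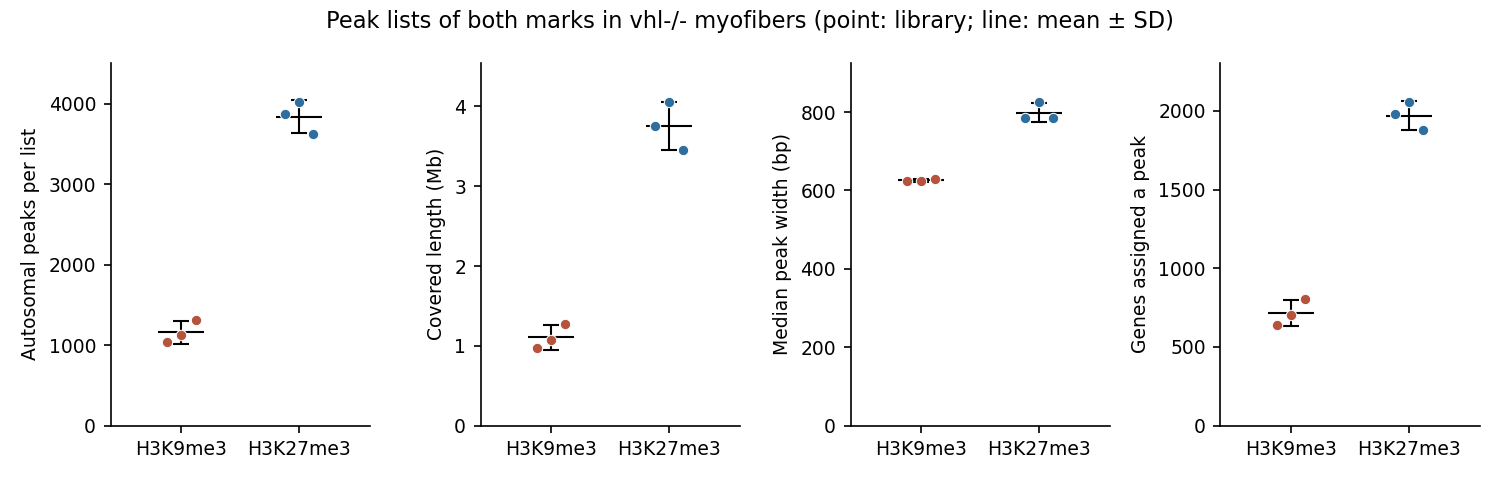
Autosomal peaks, covered length in Mb, median peak width in bp and genes assigned a peak in each of the 3 H3K9me3 and 3 H3K27me3 libraries of vhl-/- myofibers. Points are libraries and bars the mean ± SD, and in each panel all H3K27me3 points lie above all H3K9me3 points.

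By annotation class, H3K27me3 peaks were more often at promoters and H3K9me3 peaks more often between genes. The share of the autosomes in each class was not computed, so only the marks are compared. The authors' promoter class, which reaches 3 kb from a start, held 16.7%, 13.9% and 13.8% of H3K9me3 peaks and 52.9%, 50.7% and 51.0% of H3K27me3 peaks. The difference was 36.8 percentage points. Intergenic peaks made up 61.5%, 62.7% and 64.1% of H3K9me3 lists and 28.9%, 31.3% and 31.1% of H3K27me3 lists, a difference of -32.4 points for H3K27me3 minus H3K9me3. Among equally long lists of the strongest peaks, promoter shares were 15.2% ± 1.29 for H3K9me3 and 62.9% ± 1.64 for H3K27me3.

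Shares of peaks inside genes differed by fewer points. Introns held 15.2% ± 0.944 of H3K9me3 and 13.3% ± 0.260 of H3K27me3 peaks, and exons 4.47% ± 0.729 and 2.33% ± 0.243 (SD, n = 3 each). H3K9me3 lists were higher in both classes without overlap of libraries. Among equally long lists the intron shares were 15.0% ± 0.841 and 7.51% ± 0.347, a difference of -7.54 points for H3K27me3 minus H3K9me3 in place of -1.97. The width of a peak moved with its class. At promoters the median width was 832, 819 and 936 bp for H3K9me3 and 840.5, 913 and 847.5 bp for H3K27me3, so the libraries of the marks overlapped there. Between genes it was 608, 604 and 612 bp for H3K9me3 and 724.5, 750 and 724 bp for H3K27me3.

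**Figure D2:**
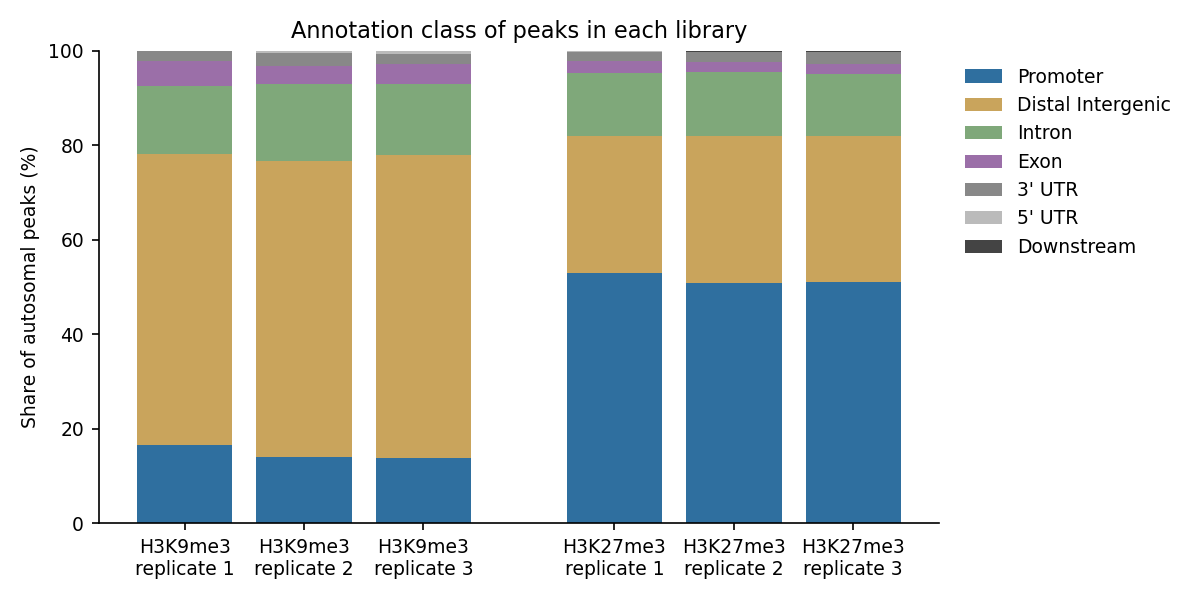
Share of autosomal peaks, in percent, in each annotation class for each vhl-/- library, with the bars of a library adding to all of its peaks. Promoter peaks hold 13.8% to 16.7% in H3K9me3 bars and 50.7% to 52.9% in H3K27me3 bars, and intergenic peaks 61.5% to 64.1% and 28.9% to 31.3%.

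Distance to the nearest RefSeq start gave the same order with another set of transcripts. The median distance from a peak's midpoint was 30.4, 32.4 and 32.5 kb in H3K9me3 lists and 5.92, 6.72 and 6.30 kb in H3K27me3 lists, over peaks on the 18 autosomes with windows. Few midpoints of H3K9me3 peaks lay within 1 kb of a start (1.39% ± 0.235), compared with 14.3% ± 0.588 for H3K27me3 (SD, n = 3 each). A peak overlapped the start itself in 0.983% ± 0.178 and 6.67% ± 0.401 of cases. More than 100 kb away were 22.9% ± 1.04 of H3K9me3 and 7.81% ± 0.632 of H3K27me3 peaks. These shares are lower than those of the promoter class, which reaches 3 kb and is an unlike measure. The authors' promoter class up to 1 kb held 6.97% ± 1.05 of H3K9me3 and 29.9% ± 0.783 of H3K27me3 peaks. The RefSeq table also does not hold every transcript the authors annotated with.

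**Figure D3:**
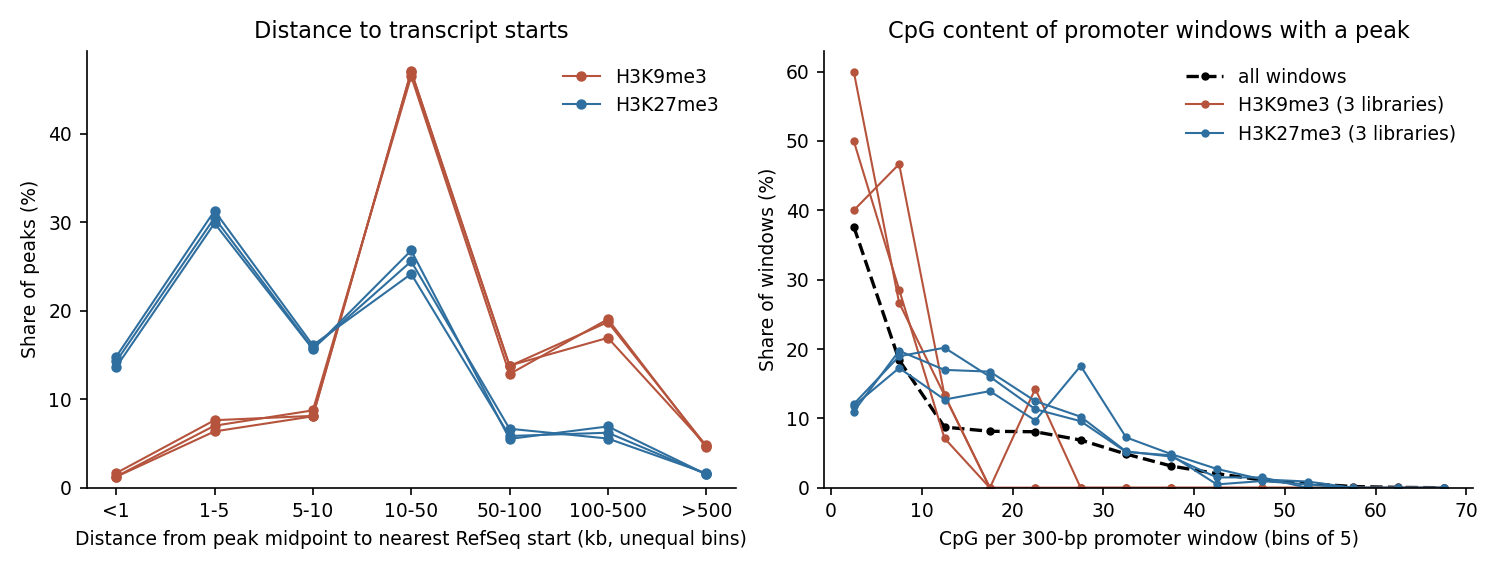
Left, share of peaks in percent by distance from the peak midpoint to the nearest RefSeq start, in unequal bins in kb, with a line for each library. Right, share of promoter windows in percent by number of CpG, for windows with a peak in each library and for all windows (dashed): H3K9me3 lines rest on 14 or 15 windows each and H3K27me3 lines on 330 to 406.

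Most genes with a peak were assigned 1 mark only. At least 1 list of either mark had a peak for 4690 genes, and 1508 had H3K9me3, 3415 had H3K27me3 and 233 had both in any list. Those 233 genes were 15.5% of the H3K9me3 and 6.82% of the H3K27me3 genes. The share of all annotated genes with either mark was not computed. The 233 are therefore not read as fewer or more than unrelated placement would give. H3K9me3 in all 3 lists and H3K27me3 in none was found at 168 genes (3.58% of the genes tested), and the reverse at 794 genes (16.9%). Replicates of a mark shared part of their genes: 195 of the 1508 H3K9me3 genes (12.9%) and 837 of the 3415 H3K27me3 genes (24.5%) were in all 3 lists. Of the 2346 genes with a promoter peak in any list, 33 had H3K9me3 promoter peaks in every list without H3K27me3 ones, 551 the reverse, and 12 had promoter peaks of both.

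Transcription factor genes of development carried H3K27me3. The lists of genes used here were chosen with earlier results of these data known, and their counts are descriptions. Hox cluster genes, which set position along the body axis, had H3K27me3 peaks at 15, 15 and 16 genes and no H3K9me3 peak in any list. Of the 19 Hox genes with a peak, 12 were in all 3 H3K27me3 lists (63.2%, against 16.9% of all genes). All 19 had H3K27me3, and among all genes with H3K27me3 in any list the share was 23.3%. Hoxd13, needed for digit formation, had 3, 2 and 4 peaks and best scores of 354.45, 429.39 and 291.85. Hoxc13, a hair and nail regulator, reached 371.81, 244 and 447.77 with 11, 9 and 12 peaks. The remaining 20 of 39 Hox genes in RefSeq, among them Hoxa9 and Hoxc8, were assigned no peak, while a peak goes to 1 gene only and neighbours in a cluster compete for it.

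Most other homeobox genes carried H3K27me3. H3K27me3 peaks were assigned to 100, 102 and 96 of the 119 members in RefSeq, and H3K9me3 peaks to 1, 0 and 2. H3K27me3 in all 3 lists and no H3K9me3 was found at 89 of the 105 members with any peak (84.8%). The share was 16.9% of all genes and 23.3% of genes with H3K27me3. Homeobox genes outside the Hox clusters held 11.3% ± 0.433 of all H3K27me3 peaks (SD, n = 3). The strongest was Nkx2-4, a ventral forebrain factor, with 5, 7 and 8 peaks. Its best scores were 805.69, 933.86 and 351.73, ranked 2, 1 and 19 within the lists. Lhx1, a kidney and head organiser factor, scored 398.54, 449.15 and 318.67.

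In smaller transcription factor families, H3K27me3 was in all 3 lists at 7 of the 10 T-box genes with a peak, 5 of 8 Sox, 13 of 22 forkhead, 18 of 26 basic helix-loop-helix and 10 of 12 Gata, Zic and Sall genes, with no H3K9me3 at those genes. These were 59.1% (forkhead) to 83.3% (Gata, Zic and Sall) of the members with a peak. Members without a peak, such as Sox2 and Foxc2, are left out of these shares. RefSeq holds 15 T-box, 18 Sox, 41 forkhead, 45 basic helix-loop-helix and 13 Gata, Zic and Sall genes. The share was 16.9% of all genes and 23.3% of genes with H3K27me3. Tbx20, a cardiac T-box factor, scored 359.34, 238.76 and 285.68. Foxa1, an endoderm pioneer factor, scored 406.88, 249.35 and 456.97. Gata4, a cardiac and endoderm factor, had 16, 10 and 13 peaks. Secreted signals, with 74 members in RefSeq, had 17 of the 41 with a peak (41.5%). Among them were Fgf20, Ihh, Wnt3a and Gdf7 with scores from 64.05 to 245.26. The median percentile of a gene's best peak within its list was between 85.6 (Hox) and 95.1 (T-box) in the transcription factor lists and 67.04 for signal genes, compared with 70.6 for all genes in every H3K27me3 list.

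Among the genes with the strongest H3K27me3 and no H3K9me3, Igf2bp3 had 5 peaks in each list and best scores of 740.51, 555.94 and 623.01 (ranks 3, 6 and 2). Plag1, a growth-promoting zinc finger factor of fetal tissue, scored 468.89, 555.51 and 683.69 and ranked first in replicate 3. Lin28b, which blocks maturation of let-7 microRNAs, scored 286.85, 649.54 and 399.93. Sp8, a limb outgrowth factor, scored 514.01, 293.19 and 475.41 over 10, 11 and 14 peaks. The Igf2bp3 locus also held the widest H3K27me3 peak, with 10414 bp in replicate 1, 4747 bp in replicate 2 and 9226 bp in replicate 3. The merged region spans chr6:49212760-49229202 and includes the promoter window printed above, which in replicate 3 was touched only by a weak neighbouring peak (score 50.98).

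Part of the zinc finger genes showed the opposite pattern. H3K9me3 peaks were assigned to 73, 72 and 71 Zfp, Zscan and Zkscan genes, and H3K27me3 peaks to 17, 18 and 10, although the H3K9me3 lists were shorter. With equally long lists the counts were 73, 70 and 62 for H3K9me3 and 0, 4 and 1 for H3K27me3. Of the 442 members in RefSeq, 130 had a peak of either mark. H3K9me3 in all 3 lists with no H3K27me3 was found at 41 of the 130 (31.5%). The share was 3.58% of all genes and 11.1% of genes with H3K9me3. Members of the list took 218, 209 and 228 H3K9me3 peaks and 23, 25 and 13 H3K27me3 peaks. For members in every H3K9me3 list, the median percentile of 71.9 lay near the 73.2 of all genes in every H3K9me3 list. H3K27me3 was in all 3 lists at Zfp800, Zfp105 and Zfp804a, the last with an H3K9me3 peak in replicate 1 (score 51.17).

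Zfp998 had the strongest H3K9me3 peak in every list, with scores of 985.42, 1008.71 and 856.39. Its 17, 13 and 23 peaks lay within chr13:66400217-66470660 and covered 23064, 18816 and 29168 bp. Zfp640, its neighbour on the same chromosome, had 34, 28 and 28 peaks, the highest number for a gene in each list, and best scores of 951.62, 862.56 and 698.88. On chromosome 4, Zfp985 scored 282.55, 203.12 and 310.98 and Zfp982 scored 236.2, 247.75 and 254.23. Platr16, a noncoding RNA gene on the same chromosome, reached 488.9, 492.44 and 345.91. None of these genes had H3K27me3 in any list. The zinc finger genes lie in families of near-identical copies, and how the authors placed reads that match several copies is not given, so the scores of single members are uncertain.

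Chemosensory receptor genes recurred little between lists of either mark. Vomeronasal and trace-amine receptors had H3K9me3 at 18, 28 and 39 genes and H3K27me3 at 4 in each list. Of the 71 members with a peak, 5 were in every H3K9me3 list and no H3K27me3 list (7.04%). The share was 3.58% of all genes and 11.1% of genes with H3K9me3. Among the 5, Vmn2r39 scored 74.17, 76.43 and 60.94, and their median percentile was 46.0, compared with 73.2 for all genes in every H3K9me3 list. Libraries of the marks overlapped for olfactory receptors, with 9, 16 and 18 genes for H3K9me3 and 15, 13 and 5 for H3K27me3. Olfr461 was in every H3K9me3 and Olfr63 in every H3K27me3 list (each 1.56% of the 64 members with a peak). Clustered protocadherins, neuronal adhesion genes, had H3K9me3 at 3, 5 and 2 genes and H3K27me3 at 0, 1 and 0.

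Contractile genes of the mature fiber were assigned no peak, while part of the myogenic regulators carried H3K27me3. A gene without a listed peak may still carry the mark below the score limit. None of the 20 contractile and metabolic myofiber genes on the list, such as Acta1, Ckm and Ttn, was assigned a peak in any of the 6 lists. Lack of a peak was common, since 30540 of the 31365 promoter windows, a narrower measure, carried neither mark. Missing peaks in this and the following lists are therefore not read as a trait of their genes. Among myosin heavy chains, Myh8, the neonatal isoform, had 1 H3K27me3 peak in each list (scores 250.83, 155.22 and 137.95) and no H3K9me3 peak, and the other 10 had neither. The paper reports loss of H3K27me3 at Myh8 in this vhl-/- model. A called peak does not measure a reduction from wild-type, which was not tested here. Of the 12 genes on the stem cell and myogenic list, 5 had H3K27me3, with 18, 31 and 25 peaks, and none had H3K9me3. Pax3, a factor of embryonic muscle progenitors, had 5, 12 and 11 peaks with best scores of 150.68, 244.34 and 159.85. Tcf21, better known from mesenchymal progenitors than from muscle stem cells, had 9, 14 and 11 peaks. Eya1, a transcriptional cofactor of muscle precursors, scored 84.46, 119.82 and 64.58, and Lbx1, a limb muscle migration factor, 52.48 and 53.42 in replicates 1 and 3. Pax7, the stem cell marker whose promoter drives the Cre, had H3K27me3 in replicates 2 and 3 only (74.08 and 71.6). Of the 20 HIF1 target genes, Kdm3a alone had a peak, with H3K27me3 scores of 55.58 and 50.23 in replicates 2 and 3. Hif1a, Epas1, Arnt and Egln2 had none.

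Markers of other cells in muscle were checked in the same way. Of the members with any peak, H3K27me3 was in all 3 lists without H3K9me3 at 1 of 3 endothelial (Erg), 1 of 2 macrophage and blood (Cd14), 1 of 2 fibroblast and adipogenic progenitor (Pdgfra) and 4 of 8 neuronal markers (Gad1, Gad2, Slc17a6 and Elavl3). The share was 16.9% of all genes and 23.3% of genes with H3K27me3. The first 3 lists have 8 members each and the neuronal list 10. H3K9me3 was in all 3 lists at no marker of these lists. Pecam1, Cdh5, Csf1r, Adgre1, Col1a1 and Dcn had no peak of either mark. How far other cells contributed to either mark was not tested.

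The remaining lists held potassium channels, genes known by clone or predicted names, imprinted genes and the enzymes of the marks. Potassium channel genes had H3K9me3 at 2, 3 and 2 and H3K27me3 at 26, 23 and 25 of 79 members. Of the 38 with a peak, 12 were in every H3K27me3 list and no H3K9me3 list (31.6%). The share was 16.9% of all genes and 23.3% of genes with H3K27me3. The median percentile of channel genes in every H3K27me3 list was 53.5, below the 70.6 of all genes. Genes with predicted Gm names took 31.9% ± 0.0698 of H3K9me3 and 12.0% ± 0.791 of H3K27me3 peaks (SD, n = 3 each), and Rik clone genes 4.82% ± 0.664 and 5.06% ± 0.242. Imprinted genes had H3K9me3 at 1, 0 and 0 and H3K27me3 at 3, 1 and 5 of 35 members. Of the 16 genes for histone methyl writers and erasers, Ezh2, the catalytic subunit of Polycomb repressive complex 2, had an H3K27me3 peak in replicate 1 (61.46) and Kdm4d, an H3K9 demethylase, in replicate 2 (51.91).

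**Figure D4:**
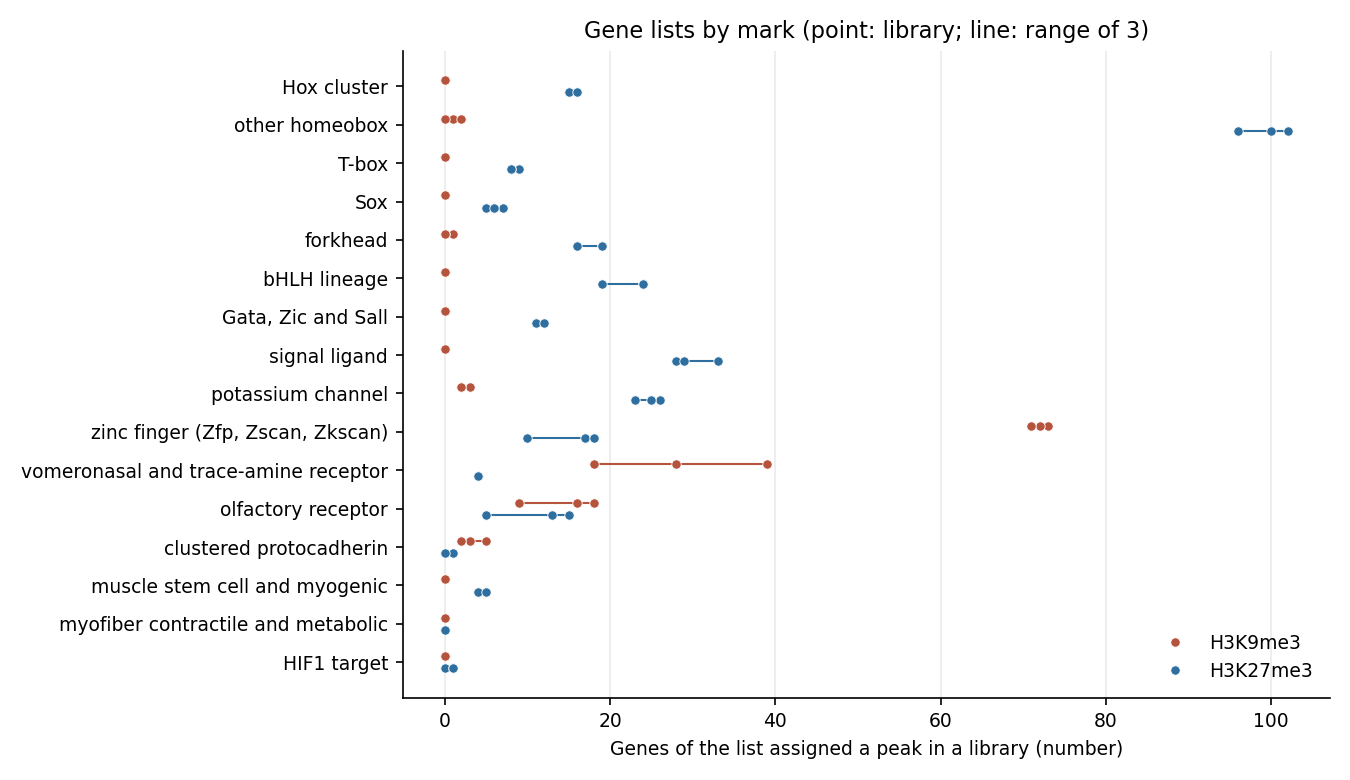
Number of genes of each list that were assigned a peak in a vhl-/- library, with a point for each library and a line for the range of 3. Developmental factor lists lie to the right for H3K27me3 (96 to 102 homeobox genes, 15 to 16 Hox genes), and the zinc finger list for H3K9me3 (71 to 73 genes).

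The marks were spread differently over the chromosomes. Chromosome 13 held 19.2%, 18.6% and 17.2% of H3K9me3 peaks, more than any other autosome, and 6.38%, 6.81% and 6.32% of H3K27me3 peaks. Chromosome 2 held 3.65% to 4.14% of H3K9me3 peaks, compared with 11.3% to 12.2% of H3K27me3 peaks. H3K9me3 shares were also higher on chromosomes 7, 17, 4, 12 and 1, and H3K27me3 shares on chromosomes 11, 9, 19, 8, 15, 6, 14, 10 and 18. Libraries of the marks overlapped on chromosomes 3, 5 and 16. On the other 16 chromosomes the exact permutation p was 0.1, the smallest possible, and 0.119 when adjusted over the 19. Over the 19 chromosomes, the H3K27me3 share went with the share of RefSeq genes (Pearson r = 0.72, Spearman rho = 0.80), compared with 0.34 and 0.47 for the H3K9me3 share, or 0.57 and 0.58 without chromosome 13. The H3K9me3 share and the share of zinc finger genes gave 0.52 and 0.54, and the H3K27me3 share 0.25 and 0.51. Without chromosome 13 the zinc finger values were 0.56 and 0.47 for H3K9me3 and 0.23 and 0.49 for H3K27me3. These are descriptions over 19 chromosomes that share the libraries. The share of a list that would have to move between chromosomes to match another was 29.6 percentage points on average between marks, 5.97 among H3K9me3 and 2.70 among H3K27me3 lists. The excess between marks was 25.2 points (exact permutation p = 0.1), and it was 22.6 points without chromosome 13, a step chosen after the data were seen.

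**Figure D5:**
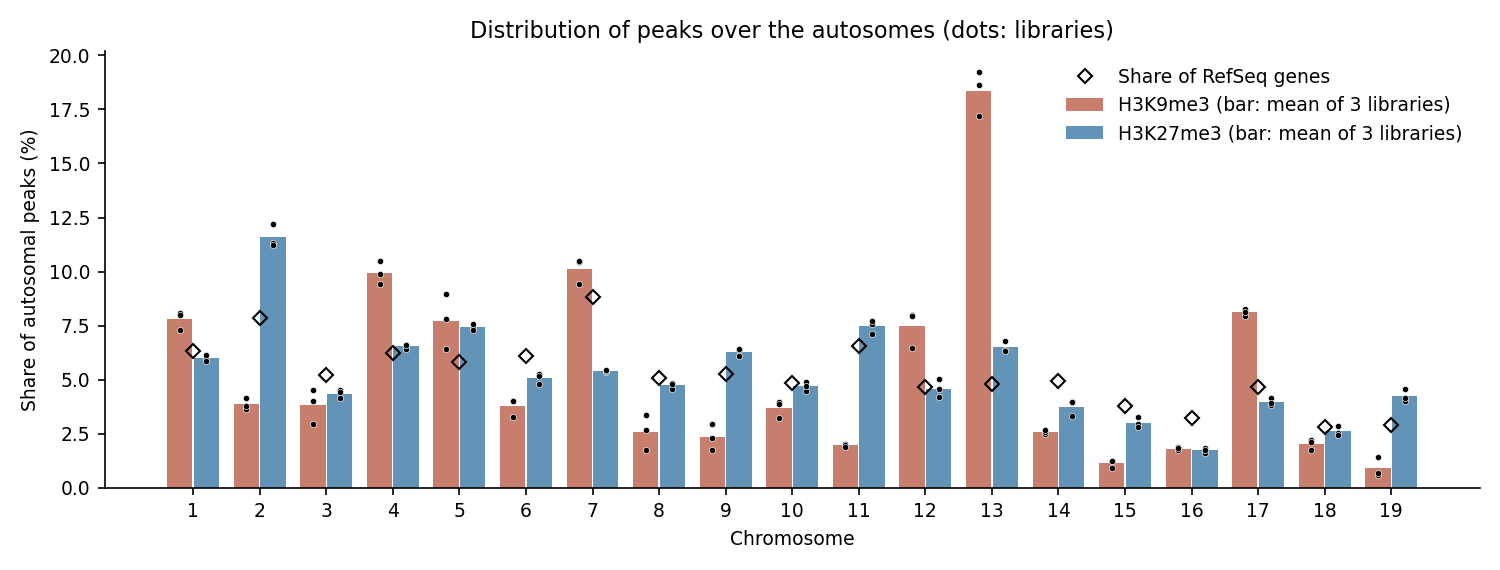
Share of autosomal peaks in percent on each of the 19 autosomes, with bars for the mean of 3 libraries of each mark, dots for libraries and diamonds for the share of RefSeq genes. H3K9me3 reaches 18.4% on chromosome 13, where H3K27me3 has 6.50%, and H3K27me3 reaches 11.6% on chromosome 2, where H3K9me3 has 3.87%.

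Windows of 1 Mb located these shares. The window from 66 to 67 Mb of chromosome 13 had 75, 69 and 78 H3K9me3 peaks and 1, 0 and 0 H3K27me3 peaks. Genes assigned its peaks included Zfp998, Zfp640 and Zfp997. The adjoining window from 65 Mb had 53, 51 and 61 H3K9me3 and 1, 2 and 0 H3K27me3 peaks. RefSeq lists 46 and 40 genes in these 2 windows, of which 23 and 18 are pseudogenes and 1 in each is on the zinc finger list. Both windows together took 12.3%, 10.7% and 10.6% of each H3K9me3 list, and without them chromosome 13 held 7.90%, 8.88% and 7.40%. The next H3K9me3 windows were at 145 and 147 Mb of chromosome 4, among Zfp990, Zfp986, Zfp985 and Zfp984, and at 85 Mb of chromosome 1, at Sp140, which encodes a nuclear body protein, and A530032D15Rik. RefSeq places 2 and 9 members of the zinc finger list in the chromosome 4 windows and 0 in that of chromosome 1. H3K27me3 was densest from 96 Mb of chromosome 11, at the Hoxb cluster and Igf2bp1, with 58, 65 and 61 peaks and no H3K9me3 peak. It was followed by 74 Mb of chromosome 2 (Hoxd cluster and Evx2; 36, 44 and 38 peaks) and 105 Mb of chromosome 2 (Pax6 and Wt1; 26, 28 and 23). The 20 fullest windows held 40.7%, 38.1% and 38.9% of H3K9me3 peaks and 12.3%, 13.1% and 12.8% of H3K27me3 peaks.

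Of 1918 windows with a peak, 70 had H3K9me3 in all 3 lists without H3K27me3 (3.65%), 496 had the reverse (25.9%), and 36 had every list of both marks. On a finer scale H3K27me3 peaks more often had a neighbour. A peak had another of its list within 10 kb in 42.0%, 39.7% and 40.3% of H3K9me3 and 64.4%, 62.4% and 62.2% of H3K27me3 cases. H3K9me3 lists held 1.62 ± 0.0221 and H3K27me3 lists 1.95 ± 0.0143 peaks per gene. The size of both differences depended on the peaks counted. At a score of at least 100, shares with a neighbour were 51.2% ± 7.13 for H3K9me3 and 61.2% ± 1.88 for H3K27me3, a difference of 9.93 points in place of 22.3, and peaks per gene of H3K27me3 were lower by 0.062 on the log2 scale. Among equally long lists peaks per gene were 1.604 ± 0.0189 and 1.659 ± 0.0193, a log2 difference of 0.05 in place of 0.27.

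The intervals of the marks shared few bases. Over the 10197 merged regions, 139 had H3K9me3 in all 3 lists and no H3K27me3 (1.36%), 805 had the reverse (7.89%) and 23 had both marks in any list. The union of H3K9me3 peaks covered 2.51 Mb and that of H3K27me3 8.29 Mb. They shared 23.4 kb, or 0.933% of the H3K9me3 and 0.282% of the H3K27me3 length. Both unions are small, and the overlap of unrelated intervals was not computed. The low overlap is therefore not read as avoidance between the marks. A peak overlapped the other mark in 1.68% ± 0.154 of H3K9me3 and 0.338% ± 0.0968 of H3K27me3 cases, while 32.4% ± 3.17 and 53.2% ± 1.74 overlapped another list of their own mark (SD, n = 3 each). The mean Jaccard index (overlapping length divided by the length covered by at least 1 of the lists compared) was 0.00183 over 9 pairs between marks, 0.188 among H3K9me3 and 0.190 among H3K27me3 lists. The difference within minus between marks was 0.187 (exact permutation p = 0.1, adjusted p = 0.1). Replicates themselves left most regions in 1 list, 85.6% of H3K9me3 and 72.3% of H3K27me3 regions.

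Regions found in every list of a mark kept the classes of that mark. Of the 139 H3K9me3 regions, 80 were intergenic (57.6%) and 31 at promoters (22.3%), and 56 lay on chromosome 13. Of the 805 H3K27me3 regions, 521 were at promoters (64.7%) and 182 intergenic (22.6%), and 103 lay on chromosome 2. In the other genotypes, 138 of the 139 (99.3%) and 781 of the 805 (97.0%) had a peak of the same mark in at least 1 of 9 lists, and 20 and 18 had one in all 9. Of all regions with the mark in any vhl-/- list, 39.6% (1092 of 2755) and 50.9% (3803 of 7465) had one in at least 1, and 32 and 22 in all 9.

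Regions with both marks were more often complete in H3K9me3: 15 of the 23 were in all 3 H3K9me3 lists, while 12 were in a single H3K27me3 list. Those in all 3 lists of both were assigned to Gm5614 (chr9:35304979-35305900), Gm9075 (chr12:3109376-3110636) and Aida (chr1:183299002-183299935). At Gm5614, H3K9me3 scores were 836.24, 752.9 and 714.47, ranked 3 among the peaks of each list, and H3K27me3 scores 252.92, 346.95 and 428.42, ranked 92, 27 and 11. Chl1, a neural cell adhesion gene, had H3K9me3 scores of 474.02, 442.66 and 402.49, annotated to exon 5 in replicates 1 and 2 and to intron 4 in replicate 3. The H3K27me3 peaks in that region were in replicates 2 and 3 (104.75 and 140.56), and replicate 1 had a separate one 2 to 3 kb from a Chl1 start (58.03). The regions at Gm5614, Gm9075, Gm10801 and Chl1 had peaks in all 9 H3K9me3 and all 9 H3K27me3 lists of the other genotypes. Peaks of both antibodies that recur in so many lists need not reflect the marks. How reads that match several sites were placed is not given, and its part in these peaks was not tested. Kcnh5, a potassium channel gene, had both marks in all lists by assignment but not in a shared region. At Tmem125 the H3K27me3 peaks ranked 234 and 92 in replicates 2 and 3 (scores 183.21 and 232.27), and the H3K9me3 peaks 224 and 432 in replicates 1 and 2 (78.07 and 62.72).

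The contrast of marks was set beside that of the other genotypes. The ratio of H3K27me3 to H3K9me3 peak number was 3.33 in vhl-/-, 1.56 in wild-type, 2.43 in mfn2-/- and 0.346 in HIF1dPA lists. Against the 9 other libraries of each mark together, the log2 ratio was larger in vhl-/- by 1.61 (exact two-sided permutation p = 0.0669, adjusted over 3 measures 0.201). The 9 libraries pool 3 genotypes that differ among themselves, and the spread between those genotypes enters each of these pooled tests. The promoter difference of 36.8 points stood beside 34.4, 40.0 and 25.1 points in wild-type, mfn2-/- and HIF1dPA (difference 3.61 points, exact p = 0.402, adjusted p = 0.402). For median width the log2 ratio was larger by 0.16 (exact p = 0.149, adjusted p = 0.223). None of these differences passed 0.05.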

How the data were processed

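Peaks on chromosomes 1 to 19 were taken from the lists of the 6 vhl-/- libraries. Genes, lists and tests were chosen with earlier results of these data known. The authors deposited, for each library on its own, peak intervals with a score (10 times the negative log10 of the p-value), a gene and an annotation class. Per the labels, reads were aligned to mm10, and BWA 0.7.5, MACS and deepTools 3.5.0 were used, while the caller's settings and use of the input are not given in the sources used here. The lowest score was 50.01, and peak names number 230 to 447 more peaks per list than are listed, which were not analysed here. The score depends on depth, which is unknown, so it was used only within a list, and no counting interval could be given.

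Marks were compared with exact two-sided permutation tests over libraries (20 arrangements), on log2 values for numbers, lengths and widths, with Benjamini-Hochberg adjustment. Contrasts between genotypes permuted genotype labels within each mark (48400 arrangements). Peaks that shared at least 1 bp were merged into regions. Genes were named by a fixed rule: the highest mean score percentiles among genes with 1 mark in all lists, genes with both marks, leading members of each list, the widest regions and the fullest 1 Mb windows. Of 4690 genes, 92.4% matched a RefSeq symbol. Code was tested on simulated data. Python 3.11.15, numpy 2.4.6 and pandas 2.3.3 were used.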

Additional observations from a re-analysis of the deposited data

Results flagged for a closer look

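Taken against each other genotype alone, over 9 such comparisons of 3 measures, the mark contrast in peak number differed from wild-type and HIF1dPA, and against mfn2-/- the difference was 0.45 (exact permutation p = 0.24, adjusted p = 0.309). The log2 ratio of H3K27me3 to H3K9me3 peaks was larger in vhl-/- than in wild-type by 1.10 (exact permutation p = 0.01, adjusted p = 0.045) and than in HIF1dPA by 3.27 (exact permutation p = 0.01, adjusted p = 0.045), where every H3K27me3 list was shorter than every H3K9me3 list. Depth is unknown for all of these lists, and its part in the result was not tested.

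Peaks on the sex chromosomes were outside the comparison of marks. The Y chromosome held 2.73% ± 0.230 of vhl-/- H3K9me3 peaks (28, 35 and 40 peaks; SD, n = 3), above the 0.540% ± 0.0804 of wild-type lists (15, 15 and 19 peaks). The wild-type lists were longer, so the counts differed by less than the shares. H3K27me3 lists of vhl-/- held 1, 0 and 0 peaks there. The X chromosome held 4.75% ± 1.04 of vhl-/- H3K9me3 peaks, 24.3% ± 0.786 of wild-type H3K9me3 peaks and 0.277% ± 0.0200 of vhl-/- H3K27me3 peaks.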

How the results depend on the processing

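The results were recomputed with a score minimum of 100, with the strongest peaks of each list in equal numbers, with peaks within 1000 bp joined, with promoter peaks only, without each replicate and with each other genotype alone. All 13 mark differences kept their direction without each replicate. At a score of at least 100, H3K9me3 without H3K27me3 was left at 41 genes and 45 regions, the reverse at 216 and 200, and both marks at 6 and 5. A list then held 81 ± 4.58 genes and 135 ± 16.5 peaks for H3K9me3, and 505 ± 43.6 genes and 804 ± 80.2 peaks for H3K27me3 (SD, n = 3 each). Median width (-0.027, log2) and peaks per gene (-0.062, log2) turned over, and 3.74% of H3K9me3 peaks overlapped H3K27me3. With equal lists, 259 genes and 263 regions had H3K27me3 alone, 49 and 8 had both, and 0.674% of H3K9me3 peaks overlapped. Each list then held 1039 peaks, at 648 ± 7.64 genes for H3K9me3 and 626 ± 7.23 for H3K27me3. Genes assigned a peak (-0.048, log2) and the share of peaks reaching 3 kb (0.706 points) turned over, the latter also with peaks joined (3.21 points). Fewer peaks entered under the first 2 settings, and otherwise the cause was not tested. Promoter peaks alone left 33 H3K9me3 genes and 12 with both marks, of 2346 genes with a promoter peak.

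The genotype contrast in peak number was 1.10 against wild-type and 3.27 against HIF1dPA, and that in width 0.39 against HIF1dPA (exact permutation p = 0.025, adjusted p = 0.075). The contrast in promoter share turned over against mfn2-/- (-3.20 points) and at a score of at least 100 (-0.466). Without each replicate, regions called for H3K9me3 alone ranged from 141 to 240 and for H3K27me3 alone from 805 to 1314, since a region then had to be in fewer lists (228, 240 and 213 without H3K9me3 replicates 1, 2 and 3, and 1226, 1227 and 1314 without H3K27me3 replicates 1, 2 and 3), and genes with both marks from 158 to 195. With the replicate block all 13 values were unchanged by construction (promoter share 36.8 points) and the smallest exact p rose to 0.25. Same-numbered deviations over 1918 windows correlated at -0.0140, -0.00877 and -0.00649, and different-numbered ones at -0.000959 to 0.0100. The marks lie at mostly different sites, so this check cannot tell whether same-numbered libraries share an animal. Chromosome 13 was left out as a step chosen after the data were seen, and 5 results kept their direction. Peak number in equal lists was not run, being fixed by construction.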
